A study of Mus musculus with 6 samples.

Results

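The genes described here encode the machinery that copies DNA in S phase, together with the factors that switch it on at the end of G1. They are 48 genes taken by symbol from a list, of 39179 gene identifiers counted in mouse Th17 cells. The list was chosen with earlier results of these data known. All 48 were matched and passed the filter on low counts. Cultures with desIgf1 were compared with cultures without it, to ask how insulin-like growth factor signalling alters what Th17 cells express. The 3 desIgf1 libraries and the 3 control libraries all came from naive CD4+ T cells of C57BL/6 mice whose Foxp3, Ifng and IL17a genes report through GFP, Thy1.1 and hCD2, respectively. Both groups were cultured for 5 days on irradiated splenocytes without CD4+ cells, with IL6 at 20 ng/mL, TgfB at 2.5 ng/mL, soluble anti-CD3 at 5 µg/mL, and antibodies to IL4 and Ifng at 10 µg/mL each. The desIgf1 group also received 30 ng/mL desIgf1, a truncated form of insulin-like growth factor 1. The treatment text of the labels names desIgf1 for all 6 libraries, and the groups here follow the titles, the sample descriptions and the series' design. RNA came from cells that were sorted as positive for the Il17a reporter (human CD2) and negative for the Ifng and Foxp3 reporters, so cells that had not turned on Il17a were not measured. The sources used here give neither the ages of the mice nor whether libraries came from separate animals or cultures, and p-values therefore measure only the spread between these libraries.

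Before S phase, the origin recognition complex, Cdc6 and Cdt1 load the MCM2-7 helicase onto DNA. Cdc45 and the GINS complex then switch the helicase on, primase and polymerase alpha start new strands, and the clamp loader RFC places the PCNA ring that holds polymerases delta and epsilon on their template. Transcription of many of these genes is driven by E2F factors once cyclin-dependent kinases have released them from RB proteins, and activated T cells express the set at a high level while they divide.

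The promoters of the members are shown first. Promoter motifs were not used to choose the members, but many genes of this function are driven by E2F, so the shares below may follow from the choice. RefSeq promoter windows (GRCm38.p6, 250 bases before to 50 after the start) were found for 39 of the 48 members, in 47 windows. The E2F core was searched as TTTCCCGC, TTTCGCGC, TTTGCCGC and TTTGGCGC on both strands, and matches on opposite strands could overlap. It was present for 17 of the 39 members (43.6%), against 4.77% of 9951 genes tested for expression and 2.60% of all 27025 genes in the table. The CCAAT box, searched as CCAAT on both strands, was present for 25 members (64.1%), against 43.0% of the genes tested for expression and 41.1% of all genes. The 3 promoters below are shown as the 160 bases that end just before the start, read 5′ to 3′ on the gene's strand, with both motifs in capitals. They are Mcm5, which had the second largest fitted difference of the members, Mcm6, which had 3 E2F core matches, and Rpa1. Rpa1 was the only member whose groups did not overlap, with all desIgf1 libraries below all controls, as for 6.18% of all genes tested.
Mcm5 (chr8:75109349-75109508, plus strand): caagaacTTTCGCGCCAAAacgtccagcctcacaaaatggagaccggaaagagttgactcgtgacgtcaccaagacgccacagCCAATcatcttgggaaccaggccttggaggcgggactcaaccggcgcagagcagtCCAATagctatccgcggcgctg
Mcm6 (chr1:128359706-128359865, minus strand): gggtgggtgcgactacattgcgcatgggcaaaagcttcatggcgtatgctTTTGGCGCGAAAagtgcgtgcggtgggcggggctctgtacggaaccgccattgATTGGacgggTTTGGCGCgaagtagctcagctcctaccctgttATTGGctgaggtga
Rpa1 (chr11:75348384-75348543, minus strand): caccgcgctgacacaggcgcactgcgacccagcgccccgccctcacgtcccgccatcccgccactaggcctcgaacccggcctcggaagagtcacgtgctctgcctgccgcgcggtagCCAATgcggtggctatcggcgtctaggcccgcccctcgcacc

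In Mcm5 a pair of overlapping core matches formed the 12-base run TTTCGCGCCAAA. Mcm6 held the reverse complement of that run, TTTGGCGCGAAA, and a separate TTTGGCGC nearer the start. The Rpa1 window held CCAAT and none of the 4 core sequences. A match is a description of the letters in the window and was not tested as a binding site.

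The libraries held 34567899 to 47929948 counts in genes. Levels are CPM (counts scaled to library size by edgeR, with TMM factors), and no member had fewer than 310 counts in any library. The libraries numbered 3 in each group lay at one end of the leading principal component (43.5% of the variance in log2 CPM), away from the remaining 4, so results are also given without them. T cell markers summed to 7093 to 7930 CPM with desIgf1 and 7136 to 7285 CPM in controls. Th17 markers were at 1919 to 2339 and 1505 to 1653 CPM (two-sided exact permutation p = 0.1, the smallest that 3 libraries against 3 allow). Markers of B cells and of dendritic cells each summed to under 4 CPM in every library, with Xcr1, Siglech and Cd209a at 0. The 8 macrophage and monocyte markers summed to 10.9 to 17.3 CPM with desIgf1 and 5.10 to 14.0 CPM in controls, with Fcgr1 at 0. The 7 CD8 T and NK cell markers summed to 9.09 to 18.9 and 5.83 to 13.9 CPM, with Ncr1 and Klra8 at 0. These are bulk samples, in which fewer cycling cells and less of a transcript per cell cannot be told apart.

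No replication gene passed the test between desIgf1 and control libraries. With libraries matched by the numbers in their titles, the direction of the difference was not the same in every number. In number 2, 48 of 48 members were lower with desIgf1, and in number 3, 46 of 48 were higher. The sources used here do not say whether same-numbered libraries share an animal or culture, so another matching could give other differences. The fitted level over all libraries was lower with desIgf1 for 47 of the 48 members, where it was lower for 50.9% of the 13846 genes tested. Since the list was chosen with earlier results of these data known, such shares describe the list and do not test it. Their median log2 fold change was -0.35, against -0.01 over all genes tested, and was -0.14 without control 2 and -0.20 without desIgf1 library 2, with 40 and 45 members lower. In edgeR's quasi-likelihood test 0 of 48 members passed an adjusted p of 0.05, as did 0% of all genes, and the members' adjusted p-values ran from 0.497 to 0.952. At an unadjusted p under 0.05 there were 5 members, all lower (10.4%), against 3.42% of all genes in that direction. DESeq2 also called 0 members, against 1.46% of all genes, with 7 lower at an unadjusted p under 0.05 (4.2% of all genes). Limma voom called 0 as well, against 0% of all genes, with 3 lower at an unadjusted p under 0.05 (3.32% of all genes). The standard errors of the members' log2 fold changes were 0.11 to 0.38.

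**Figure D1:**
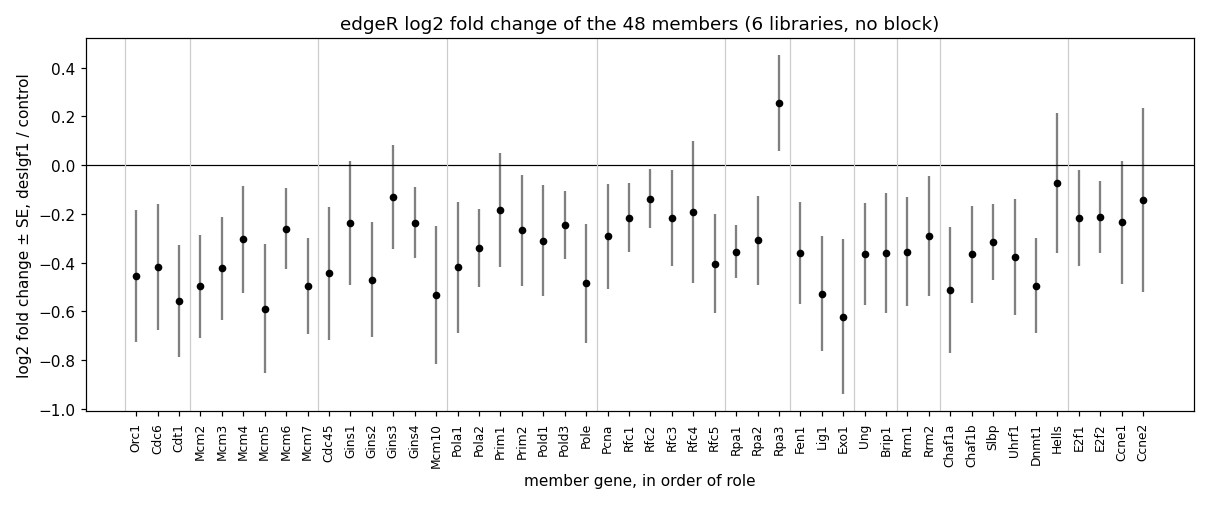
Log2 fold change (desIgf1 over control) of each of the 48 members, with bars of 1 standard error, from edgeR without the replicate block on 3 libraries a group. Members are on the horizontal axis in order of role, and 47 points lie below 0, with Rpa3 above it.

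Most members were highest in control 2 and lowest in desIgf1 library 2, while the order of the libraries between these differed from member to member. Their summed level was 6908, 8772 and 5678 CPM in the controls numbered 1 to 3, and 5825, 4352 and 6349.9 CPM in the desIgf1 libraries with those numbers. Control 2 was the highest library for 46 of the 48 members, where 19.3% of all genes were highest there, and the exceptions were Rpa1 and Rpa3. Library 2 of the desIgf1 group was the lowest for 41 members, where 21.5% of all genes were lowest there. Of the other 7 members, 6 were lowest in control 3 (Gins3, Prim1, Prim2, Rfc4, Hells and Ccne1), and Rpa3 was lowest in control 1. As deviations from each member's mean over 6 libraries, the median was 0.16, 0.53 and -0.16 on the log2 scale in controls 1 to 3 and -0.06, -0.51 and 0.07 in desIgf1 libraries 1 to 3. Control 3 thus lay below desIgf1 libraries 1 and 3, and the groups overlapped. The gap between the highest and the lowest control exceeded the fitted difference between groups for 46 members and for 11364 of 13846 genes tested. The excepted members were Rpa1 and, narrowly, Mcm7 (a gap of 0.493 and a log2 fold change of -0.495).

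**Figure D2:**
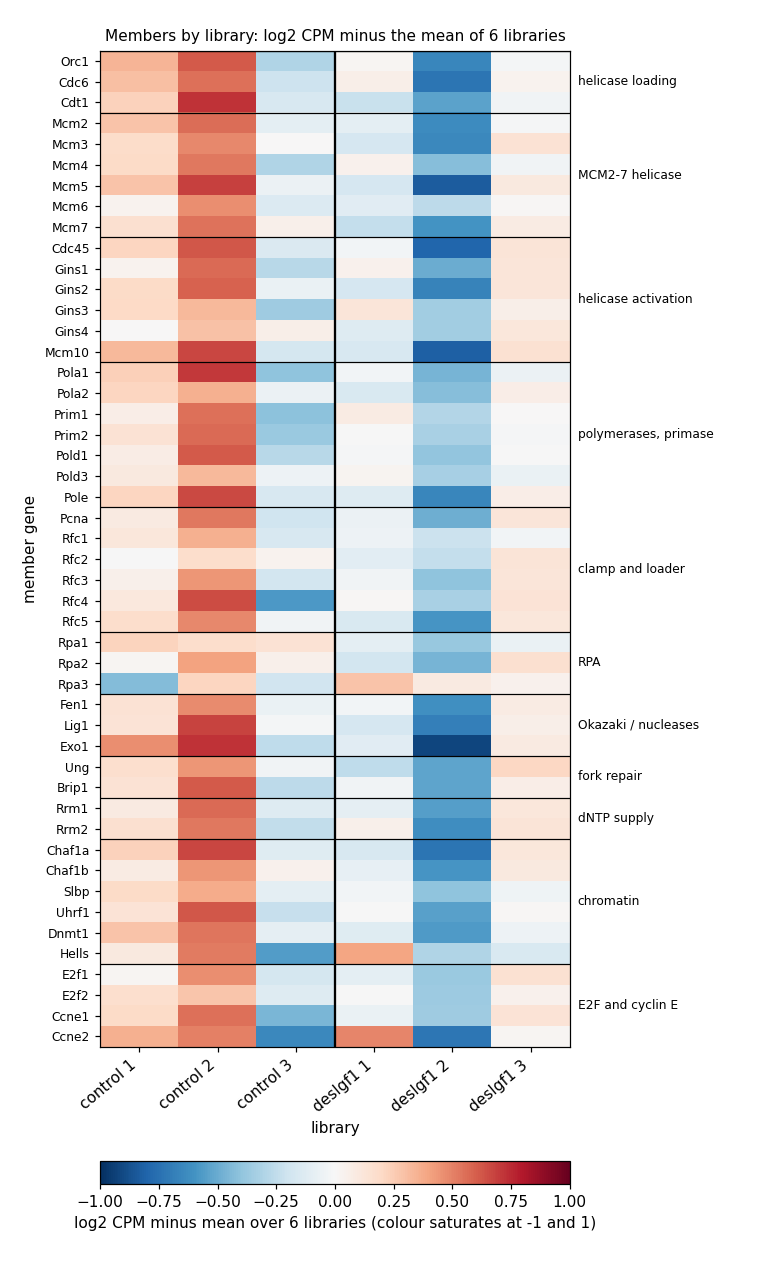
Log2 CPM of the 48 members in each of the 6 libraries, minus the member's mean over the 6 libraries, with members in rows by role and libraries in columns. Control 2 is the reddest column (median 0.53) and desIgf1 library 2 the bluest (median -0.51), being the highest library in 46 rows and the lowest in 41, respectively.

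The main test used the group only and did not pair libraries. For the within-number differences and the block, same-numbered libraries were treated as pairs, since their deviations from the group means correlated across all genes tested. The members' own medians did not follow this in numbers 2 and 3. Number 2 held the highest control median and the lowest desIgf1 median (0.53 and -0.51 from the mean of all libraries). Number 3 held the lowest control median and the highest desIgf1 median (-0.16 and 0.07). Within number 1 the median difference of the members (log2 CPM, desIgf1 minus control) was -0.18, and 43 of 48 were lower with desIgf1, against 50% of all genes. Within number 2 it was -1.05, and 48 of 48 were lower, against 46.1% of all genes. Within number 3 it was 0.24, and 2 of 48, Pold3 and Rpa1, were lower, against 49.7% of all genes. These 2 were the members that were lower in all 3 numbers, where 17.2% of all genes were. The difference was lowest in number 2, then in number 1, then in number 3 for 47 members, Rpa3 being the exception, and for 27% of all genes. The gene counts of the number 2 libraries were close, at 42860119 in the control and 42441076 with desIgf1. Their shares of uniquely placed reads in no gene were 13.46% and 15.71%, the lowest and the highest of all libraries. Whether this bears on the members' difference was not tested. With 1 library of each group in a number, a difference between numbers could not be tested.

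**Figure D3:**
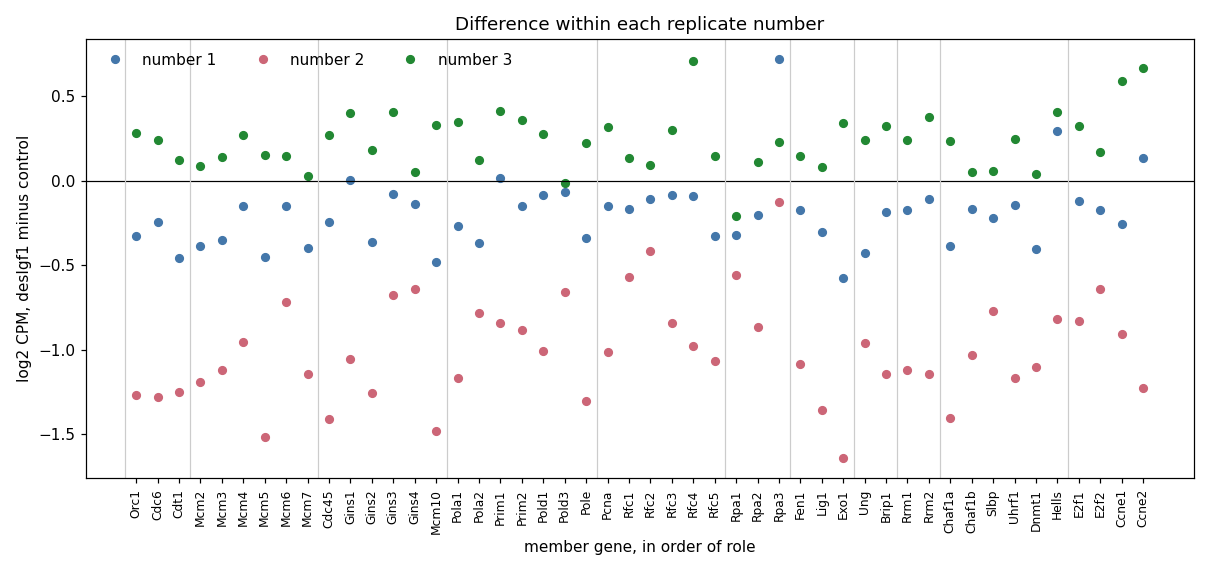
Difference in log2 CPM (desIgf1 minus control) of each member within replicate numbers 1, 2 and 3, with members in order of role. All 48 number 2 points lie below 0 and below the other points of their member, while 46 of 48 number 3 points lie above 0.

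Fitted with the replicate number as a block, edgeR called 0 of 48 members, against 0.318% of all genes, and the members' smallest adjusted p was 0.213, for Rpa1. Without the number 3 libraries the blocked fit called 17 members (35.4%), all lower, against 2.97% of 13987 genes called lower, and the median log2 fold change was -0.59. The 17 were Orc1, Cdt1, Mcm2, Mcm3, Mcm5, Mcm7, Mcm10, Gins2, Pola1, Pola2, Pole, Rfc5, Lig1, Exo1, Ung, Chaf1a and Dnmt1, with a smallest adjusted p of 0.0171, for Exo1. Without the number 2 libraries the blocked fit called 0 members, against 2.01% of all genes called lower, the median was -0.01, and 28 of 48 were lower. Without the number 1 libraries it called 0, against 0.178% of all genes called lower, with a median of -0.38. These fits have very few residual degrees of freedom, so their p-values lean on the spread that edgeR shares across genes. Without number 3 the fit kept numbers 1 and 2, whose median differences were -0.18 and -1.05. Leaving out number 3 also removes the number in which 46 of 48 members were higher, so the lower direction of the 17 partly follows from that choice.

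The helicase loading genes were among the more strongly shifted, with a median log2 fold change of -0.46 over Orc1, Cdc6 and Cdt1. Cdt1, which brings the MCM2-7 ring to origins (chromosome 8, 122568015 to 122573554), had levels of 99.1, 139 and 75.5 CPM in the controls numbered 1 to 3, and of 72.2, 58.3 and 82.3 CPM with desIgf1 in the same order. Its highest value was in control 2 and its lowest in desIgf1 library 2, and desIgf1 library 3 lay above control 3. The log2 fold change was -0.56 ± 0.23 SE (edgeR adjusted p = 0.608). Orc1, the largest subunit of the origin recognition complex, was at 27.6, 33.3 and 17.7 CPM in controls and 22.0, 13.8 and 21.5 CPM with desIgf1 (-0.46 ± 0.27, adjusted p = 0.656). Control 3 lay below desIgf1 libraries 1 and 3 for Orc1 too. Cdc6, the loading ATPase, had a log2 fold change of -0.42.

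All 6 subunits of the MCM2-7 ring were lower in the fit, with a median log2 fold change of -0.46 and a range of -0.59 to -0.26. Per kilobase of exon, the 3 members with the highest level of the 48 were Mcm3 (127 CPM per kb), Mcm6 (119.5) and Mcm4 (82.3), as means over the 6 libraries. Mcm2 (chromosome 6, 88883474 to 88898780) was at 338, 408 and 258 CPM in controls and 258, 179 and 274 CPM with desIgf1. The groups overlapped through control 3, and the log2 fold change was -0.50 ± 0.21 (adjusted p = 0.608). Mcm5 (chromosome 8, 75109569 to 75128439) was at 343, 454 and 271 CPM in controls and 251, 158 and 301 CPM with desIgf1, also with overlapping groups (-0.59 ± 0.26, adjusted p = 0.609). Its number 2 difference, -1.52, was the largest of the 6 subunits. Mcm7, which hosts a cluster of microRNAs, was at 216, 282 and 201 CPM in controls and 164, 128 and 204 CPM with desIgf1 (-0.50 ± 0.20, adjusted p = 0.595).

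Mcm3, Mcm6 and Mcm4, the highest per kilobase, had smaller fitted differences than Mcm2, Mcm5 and Mcm7. Without scaling by length, Mcm5, with the largest fitted difference of the subunits, was level with Mcm4 (296 and 295 CPM as means over all libraries). A link between level and difference was not tested. Mcm3 was at 526, 648 and 464 CPM in controls and 413, 297 and 511 CPM with desIgf1 (-0.42 ± 0.21, adjusted p = 0.630). Mcm6 was at 565, 758 and 501 CPM in controls and 508, 460 and 554 CPM with desIgf1 (-0.26 ± 0.17, adjusted p = 0.673). Control 2 stood above the other 5 libraries for both. Mcm4 was at 329.5, 416 and 234 CPM in controls and 297, 214 and 281 CPM with desIgf1 (-0.30 ± 0.22, adjusted p = 0.701).

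Helicase activation genes were all 6 lower in the fit, by a median of -0.34. Cdc45, which joins MCM2-7 and GINS into the active helicase, was at 67.5, 89.5 and 52.5 CPM in controls and 57.0, 33.6 and 63.4 CPM with desIgf1 (-0.44 ± 0.27, adjusted p = 0.661). Of the 4 GINS subunits, Gins2 was shifted most (-0.47) and Gins3 least (-0.13). Gins3 was at 23.8, 26.0 and 16.2 CPM in controls and 22.6, 16.3 and 21.5 CPM with desIgf1, with control 3 and desIgf1 library 2 equally low. Its adjusted p was 0.873. Mcm10, a scaffold for helicase activation, had a log2 fold change of -0.53.

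The 7 polymerase and primase genes were lower by a median of -0.31, from -0.18 for Prim1 (the catalytic primase subunit) to -0.48 for Pole (the catalytic subunit of polymerase epsilon). Pola1, the catalytic subunit of polymerase alpha, was at 85.3, 118 and 54.6 CPM in controls and 70.9, 52.5 and 69.5 CPM with desIgf1 (-0.42 ± 0.27, adjusted p = 0.673). Controls alone spanned a log2 difference of 1.11 for Pola1. Pold3, an accessory subunit of polymerase delta, had differences of -0.07, -0.66 and -0.02 in log2 CPM within numbers 1 to 3, and did not pass (adjusted p = 0.646).

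The clamp and its loader were shifted less, with a median of -0.22 over 6 genes. Pcna, the sliding clamp (chromosome 2, 132249162 to 132253314), was at 182, 247 and 149 CPM in controls and 164, 122 and 186 CPM with desIgf1 (-0.29 ± 0.22, adjusted p = 0.704). Control 3 was the second lowest library and desIgf1 library 3 the second highest. Pcna has annotated pseudogenes (Pcna-ps1 and Pcna-ps2), and reads that could not be placed uniquely are not in its count. Rfc2, a small clamp loader subunit, was at 93.1, 105 and 95.6 CPM in controls and 86.5, 78.9 and 102 CPM with desIgf1 (-0.14 ± 0.12, adjusted p = 0.750), with little spread among controls. Rfc4, another small subunit, had the widest gap among controls of all 48 members, 1.22 on the log2 scale.

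The single-strand binding complex RPA, which coats unwound DNA, held the members that departed most from the common pattern. Rpa1, the large subunit (chromosome 11, 75298166 to 75348324), was at 367, 356 and 348 CPM in controls and 294, 242 and 301 CPM with desIgf1. All 3 desIgf1 libraries lay below all 3 controls, which was so for 1 of the 48 members and for 6.18% of all genes. The controls spanned only 0.08 on the log2 scale, and the log2 fold change was -0.36 ± 0.11 (adjusted p = 0.497). Rpa3, the smallest subunit (chromosome 6, 8255936 to 8259173) and singled out after its values were seen, was the only member with a higher fitted level with desIgf1. It was at 9.87, 15.5 and 11.7 CPM in controls and 16.3, 14.2 and 13.7 CPM with desIgf1, with overlapping groups (0.25 ± 0.20, adjusted p = 0.713). Rpa2, the middle subunit, had a log2 fold change of -0.31.

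The role that joins Okazaki fragment processing with nucleases had the largest median shift of the roles, -0.53 over 3 genes with Exo1 counted in. Exo1, a 5′ to 3′ exonuclease with the largest fitted difference of all members, was at 35.3, 42.3 and 21.4 CPM in controls and 23.7, 13.5 and 27.2 CPM with desIgf1 (-0.62 ± 0.32, adjusted p = 0.630). It was also the member with the largest difference in number 2, -1.65, and the lowest of the 48 per kilobase of exon (3.23 CPM per kb). Lig1, the ligase that seals Okazaki fragments, was at 226, 330.1 and 203 CPM in controls and 183, 129 and 215 CPM with desIgf1 (-0.53 ± 0.24, adjusted p = 0.609). Fen1, the flap endonuclease, was at 113, 142 and 97.8 CPM in controls and 100.0, 66.9 and 108 CPM with desIgf1 (-0.36 ± 0.21, adjusted p = 0.651). Of Fen1's exon bases 84.2% overlap genes on the opposite strand (Gm10143 and Tmem258), as do 67.3% of those of Gins2 (Gse1) and 52.5% of those of Chaf1a (Ubxn6). No source used here states whether counting used strand, which leaves these 3 values uncertain.

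**Figure D4:**
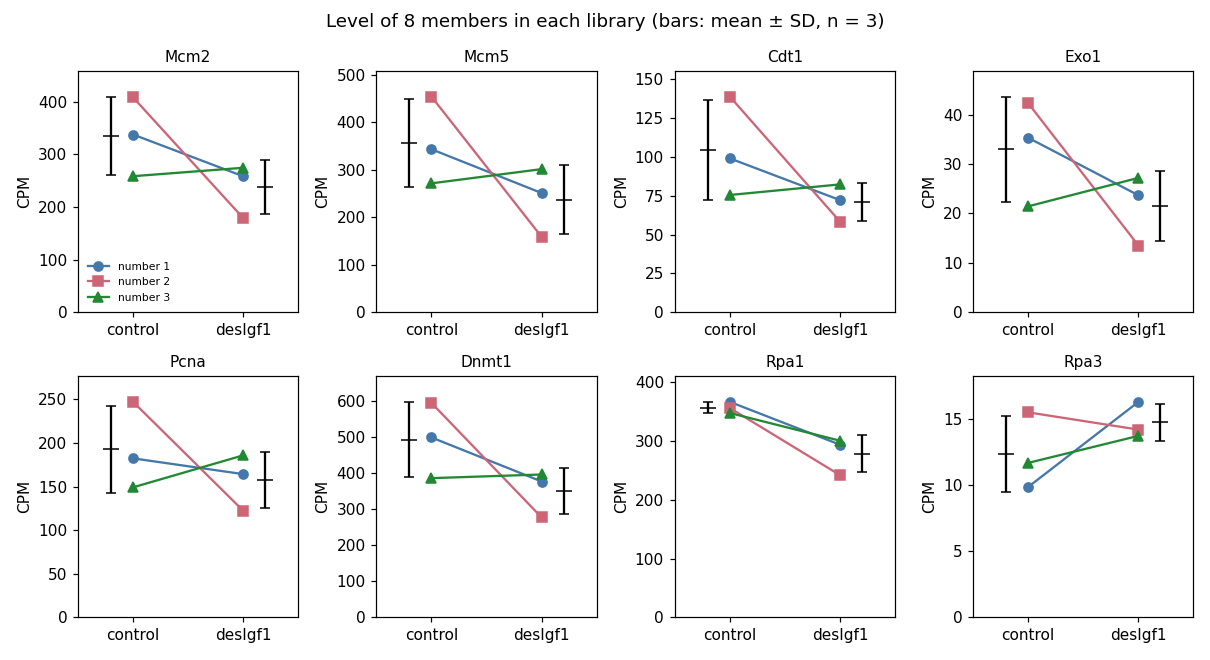
CPM of 8 members in controls and desIgf1 libraries, with lines joining libraries of the same replicate number and black marks for the group mean ± SD (n = 3). In 6 panels the number 2 line slopes steeply down and the number 3 line up, while for Rpa1 all 3 lines slope down and for Rpa3 lines 1 and 3 slope up.

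Genes of nucleotide supply and repair at the fork were all highest in control 2 and lowest in desIgf1 library 2. Rrm1, the large subunit of ribonucleotide reductase, was at 360.4, 503 and 311 CPM in controls and 319, 231 and 367 CPM with desIgf1 (-0.36 ± 0.22, adjusted p = 0.668). Library 3 of the desIgf1 group was the second highest of the 6. Rrm2, its small subunit, had a log2 fold change of -0.29. Ung, the uracil DNA glycosylase, was at 36.9, 44.4 and 32.0 CPM in controls and 27.4, 22.7 and 37.7 CPM with desIgf1 (-0.37 ± 0.21, adjusted p = 0.649). Brip1, a helicase that partners with BRCA1, had a log2 fold change of -0.36.

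Of the genes of chromatin assembly, histone mRNA and maintenance methylation, all 6 were lower in the fit, by a median of -0.37. Dnmt1, the maintenance DNA methyltransferase (chromosome 9, 20907209 to 20959888), was at 498, 593 and 385 CPM in controls and 376, 276 and 396 CPM with desIgf1. The overlap between groups came from desIgf1 library 3, which lay just above control 3, and the log2 fold change was -0.49 ± 0.19 (adjusted p = 0.584). Its partner Uhrf1, which reads hemimethylated DNA, had a log2 fold change of -0.38. Chaf1a, the large subunit of the chromatin assembly factor CAF-1, was at 121, 164 and 94.4 CPM in controls and 92.2, 61.8 and 111 CPM with desIgf1 (-0.51 ± 0.26, adjusted p = 0.630). Hells, a chromatin remodeller, had the smallest fitted difference of all members. It was at 74.5, 99.8 and 47.2 CPM in controls and 91.2, 56.6 and 62.5 CPM with desIgf1 (-0.08 ± 0.29, adjusted p = 0.952), and was higher with desIgf1 within numbers 1 and 3.

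The E2F and cyclin E genes were among the least shifted, with a median of -0.22 over 4 genes. E2f1, an activating E2F, was at 51.5, 69.8 and 44.9 CPM in controls and 47.4, 39.2 and 56.4 CPM with desIgf1 (-0.22 ± 0.20, adjusted p = 0.757). Library 3 of the desIgf1 group was exceeded only by control 2. E2f2, another activator and per kilobase the most abundant of the 4 at 34.1 CPM per kb, had a log2 fold change of -0.21. Ccne1 and Ccne2, the E cyclins that drive entry into S phase, had log2 fold changes of -0.24 and -0.14 and number 3 differences of 0.59 and 0.66, among the highest of the members.

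Other genes of the pathway were read in the same fit. Of 41 other replication factors, all tested, 0 passed the test, 35 were lower in the fit and 6 higher, and the median log2 fold change was -0.27. Their median differences were -0.10, -0.89 and 0.18 in numbers 1 to 3, in the same order as for the members. Those with the smallest p were Mcm8, a helicase of recombination repair, at 17.0 ± 3.46 CPM (SD, n = 3) in controls and 11.7 ± 2.51 CPM with desIgf1 (log2 -0.54, adjusted p = 0.608), and Timeless, of the fork protection complex, at 127 ± 21.03 and 99.6 ± 12.7 CPM (log2 -0.36, adjusted p = 0.608). Orc2 was at 49.6 ± 9.83 and 49.0 ± 4.63 CPM (log2 -0.02).

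Of 24 genes of G1/S control 23 were tested, 0 passed, and 17 were lower in the fit, with a median of -0.16. E2f7, a repressive E2F, was at 33.1 ± 8.74 CPM in controls and 22.4 ± 5.17 CPM with desIgf1 (log2 -0.57, adjusted p = 0.608). E2f4 was at 197 ± 17.8 and 167 ± 13.9 CPM (log2 -0.24, adjusted p = 0.609), and Ccnd1 was below 1 CPM in every library and too low to test. Of 32 mitosis genes 0 passed and 32 were lower in the fit, with a median of -0.28. Their median differences were -0.01, -1.03 and 0.22 in numbers 1 to 3, against -0.18, -1.05 and 0.24 for the replication genes, and the difference between the lists was not tested. Bub1b, a spindle checkpoint kinase, was at 181 ± 52.0 and 134 ± 18.9 CPM (log2 -0.43, adjusted p = 0.625), Ccnf at 85.3 ± 20.2 and 62.4 ± 15.0 CPM (log2 -0.45, adjusted p = 0.630) and Ccnb1 at 22.7 ± 9.38 and 19.3 ± 3.39 CPM (log2 -0.24). In the mitosis list 1 of 27 genes with a promoter window held the E2F core (3.70%), and 20 held CCAAT (74.1%).

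Members with and without an E2F core overlapped in their fitted differences. The 17 members with the core had log2 fold changes from -0.59 to -0.08 with a median of -0.42. The 22 with a window but without it ran from -0.53 to 0.25 with a median of -0.35. Lack of a match holds only for these windows and the 4 exact sequences searched. Some windows lay inside the annotated gene, among them those of E2f1 (without the core) and Cdc6 (with it).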

How the data were processed

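RNA was measured by sequencing in 6 libraries of sorted Th17 cells, 3 per group. Each deposited file lists 1 raw, unscaled count per gene. The submitters' processing notes list STAR 2.5.3, HTSeq 0.7.2, Trim Galore 0.4.5 and SAMtools 0.1.18 among the authors' tools, on build GRCm38 (mm10), without saying what each did. Each file ends in 5 summary lines outside any gene, which were left out; 13.5 to 15.7% of uniquely placed reads fell in no gene, and 46.4 to 48.7% of all entries were placed more than once. Symbols, coordinates and union exon lengths came from GENCODE M21 (37693 of 39179 identifiers matched).

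The main test was the quasi-likelihood test of edgeR 4.0.16 (R 4.3.3; filterByExpr with a minimum count of 10, TMM, robust fit, group only), with Benjamini-Hochberg adjustment over 13846 genes and a threshold of 0.05. The standard error was the log2 fold change over the square root of F. Differences within numbers used log2 CPM with a prior count of 2. The scripts were tested on simulated data. Alternatives were RLE factors, no factors, no filter, DESeq2 1.42.0, limma 3.58.1 voom, the replicate block and left-out libraries. The titles give both groups the numbers 1 to 3. Deviations from the group means correlated between same-numbered libraries (0.59, 0.32 and 0.55 across genes). On that evidence from the data alone, the numbers were used as pairs for the within-number differences and the block, but not in the main test. The members' own medians did not follow that correlation in numbers 2 and 3.

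The members and lists were chosen with earlier results of these data known. Named were the first gene of each role, the 6 smallest p, the 3 largest and 3 smallest changes and the 3 highest levels per kilobase, and from each other list its first gene and the 2 smallest p.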

Additional observations from a re-analysis of the deposited data

How the results depend on the processing

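The fitted level was lower for 47 of 48 members with RLE factors, total counts, no filter, DESeq2, limma voom and the replicate block, the median log2 fold change was -0.34 to -0.35 in those 6 fits, and 0 members passed in any of them. With the replicate block the median was -0.34, and the block changed no call. Over the fits that left out 1 library, or both of a number with the block, members called ran from 0 to 17, members lower from 28 to 47 and the median from -0.59 to -0.01. The 17 came from the block without number 3, and the 28 and -0.01 from the block without number 2. Without control 2 or desIgf1 library 2 alone the median was -0.14 and -0.20, and 40 and 45 members were lower. Without number 2 the block reversed 8 of 24 named members, to 0.014 for Cdc45, 0.040 for Pola1, 0.084 for Pcna, 0.034 for Rrm1, 0.11 for E2f1, 0.35 for Hells, 0.16 for Gins3 and 0.060 for Mcm4. With 1 library left out, Hells ran from -0.31 to 0.20 and Gins3 from -0.31 to 0.0066, the upper ends without control 2.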
